A study of Mus musculus with 11 samples.

Results

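The 10 genes described here make, recycle or control the 2 main thiol antioxidants of mammalian cells, glutathione and thioredoxin. They were chosen by name (Gclc, Gclm, Gss, Gsr, Txn1, Txnrd1, Prdx1, Prdx4, Nfe2l2 and Srxn1), each matched by its Ensembl identifier to 1 of the 55414 genes in the count table, and all 10 were among the 22238 genes that passed the filter on low counts. RNA came from mouse CD8+ T cells of the OT-I genotype, whose transgenic antigen receptor sees an ovalbumin peptide. At 12 h there were 3 Torin libraries from cells given Torin, an inhibitor of the kinase mTOR, and stimulated with the peptide N4. The 4 stimulated libraries came from cells given the solvent DMSO and N4, and the 4 naive libraries from cells without treatment. Separate or pooled animals are not named in the labels, so the p-values reflect only how these samples spread. In bulk RNA, fewer cells of a type and less RNA per cell cannot be told apart.

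Glutathione is a small peptide made in a pair of steps, the first by glutamate-cysteine ligase and the second by glutathione synthetase, and its oxidised form is returned to use by glutathione reductase. Thioredoxin is a small protein that reduces disulfides, among them those of peroxiredoxins, which break down hydrogen peroxide, and thioredoxin reductase recharges it. The transcription factor NRF2, the product of Nfe2l2, is held low by the adaptor KEAP1 and, once stable, binds antioxidant response elements with a small MAF partner and raises many of these genes. In activated T cells both systems are known to buffer the oxidants that come with growth.

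Promoters are shown because NRF2 is known to act through the antioxidant response element, whose core is short enough to be searched. RefSeq promoter windows (GRCm38.p6, 250 bases before to 50 after each annotated start) were matched for 8 members, in 10 windows, 3 of them for Txnrd1. The core was searched as TGACNNNGC on both strands. It was in 5 of these windows, those of Nfe2l2, Gclm, Prdx1, Srxn1 and the second start of Txnrd1, and in 12.4% of all 32851 windows. The match in the Srxn1 window lay after the start, from base 29 to base 37. The other matches are printed 5′ to 3′ on the strand of the gene with the core in capitals, which reads as its reverse complement in Gclm, Prdx1 and Txnrd1. Coordinates are those of GRCm38.p6, whereas the counts were made on mm39.
Nfe2l2, chr2:75704870-75704913, minus strand: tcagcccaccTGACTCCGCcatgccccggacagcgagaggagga
Gclm, chr3:122245398-122245456, plus strand: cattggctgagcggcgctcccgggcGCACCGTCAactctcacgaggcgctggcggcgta
Prdx1, chr4:116685441-116685499, plus strand: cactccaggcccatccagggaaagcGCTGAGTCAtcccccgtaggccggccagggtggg
Txnrd1, chr10:82859089-82859147, plus strand: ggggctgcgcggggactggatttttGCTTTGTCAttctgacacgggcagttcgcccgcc
The Prdx1 match also holds TGANTCA, the letters bound by AP-1 factors, which were in 7.81% of all windows. A match is a description of these letters and does not show that a factor was bound.

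Libraries held 241865667 to 405884097 estimated counts each. All 7 markers of CD8 T cells were above 1 CPM (counts scaled to a common library size with TMM composition factors), with sums of 4055 to 4272 CPM in Torin, 2328 to 3075 CPM in stimulated and 5365 to 6638 CPM in naive libraries. Libraries of number 2 stood apart in 8 granulocyte markers, which summed to 2068 CPM in stimulated 2 and 8557 CPM in naive 2. The other naive libraries held 135 to 175 CPM of them, and the other Torin and stimulated libraries 16.2 to 50.6 CPM. The 10 monocyte and macrophage markers summed to 28.3 to 42.2 CPM in Torin, 29.5 to 143 CPM in stimulated and 293 to 2385 CPM in naive libraries, with naive 2 the highest. The 8 B and plasma cell markers summed to 13377 CPM in Torin 4, 14546 CPM in stimulated 4 and 48046 CPM in naive 4. Elsewhere they summed to 222 to 367 CPM in naive libraries and 38.8 to 117 CPM in Torin and stimulated libraries. Stromal and endothelial markers summed to 17.7 to 20.4 CPM in naive libraries and to at most 11.2 CPM in the others. Only 2 of these 6 markers, Pecam1 and Epcam, reached 1 CPM in any library. Pecam1 alone held 14.3 to 19.5 CPM in naive libraries. Epcam went the other way, with means of 3.64 CPM in Torin, 3.41 CPM in stimulated and 2.02 CPM in naive libraries. Dendritic cell markers summed to 167 to 515 CPM in Torin, 243 to 561 CPM in stimulated and 271 to 1527 CPM in naive libraries. The part of such cells in the comparisons with naive cells was not tested. Every marker on these lists had counts in at least 1 library. Naive 2 was the highest naive library for 7 of the 10 genes and stimulated 2 the highest stimulated library for 6, so values are also given without naive 2 where that bears on them.

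With stimulation, members changed in both directions, as genes in general did. Against naive cells, 4 of the 10 genes rose in stimulated cells (Gss, Txn1, Txnrd1 and Prdx1), 2 fell (Nfe2l2 and Gclm) and 4 missed the threshold, an adjusted p of 0.05 in edgeR's quasi-likelihood test with Benjamini-Hochberg adjustment over all genes. Of all genes tested, 39.5% were called there, 19.2% as higher and 20.2% as lower, and the median log2 change was 0.18 over the 10 genes and -0.22 over all genes. In Torin against naive cells 1 of the 10 rose (Txn1) and 2 fell (Nfe2l2 and Gclc), beside 16.4% and 15.8% of all genes (32.2% in all), with medians of -0.37 and -0.18. In Torin against stimulated cells, 0 of the 10 were called in either direction, beside 4.62% of all genes, 2.32% higher and 2.3% lower. There, 2 had an unadjusted p under 0.05 in edgeR (Txnrd1 and Nfe2l2), and the median log2 change was -0.52 over the 10 genes and -0.02 over all genes. DESeq2 called the same 2 as lower, beside 2959 of the 35145 genes that it tested. The shares over all tested genes take in many of low level. Among 8550 genes with a mean of at least 5 CPM, which leave out Srxn1, edgeR called 5881 in stimulated against naive cells. It called 5120 of them in Torin against naive cells and 1378 in Torin against stimulated cells, Txnrd1 and Nfe2l2 among the last. The comparisons share libraries, so their values for a gene are not independent of each other. With library totals alone in place of composition factors, the median over all genes was -0.71 in stimulated against naive cells, and 2 of the 10 rose and 4 fell. That fit called 9129 of 22238 genes, 28.5% of them as higher. The rises of Txnrd1 and Prdx1 were not called there. Of the 11 fits that left out 1 library, 3 called the rise of Txnrd1 and 7 that of Prdx1. With the replicate number as a block, edgeR called both rises (adjusted p = 0.00236 for Txnrd1 and 0.00263 for Prdx1).

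**Figure D1:**
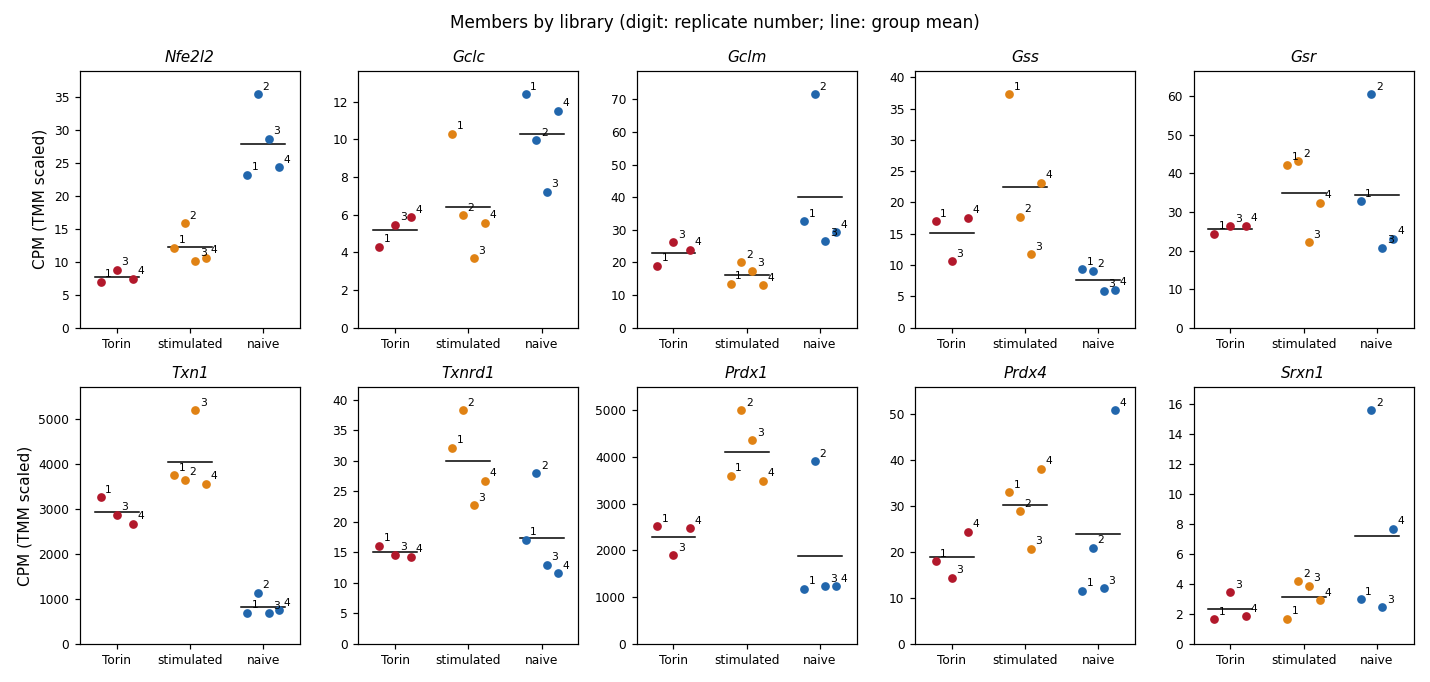
Level of each of the 10 genes in CPM scaled with TMM factors (vertical axis, from 0) in the 3 Torin, 4 stimulated and 4 naive libraries; digits are replicate numbers and lines are group means. Txn1 is at 2676 CPM or more in every Torin and stimulated library and at 1143 CPM or less in every naive library, while naive 2 stands far above the other naive libraries for Prdx1 and Gclm.

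Nfe2l2, the gene of NRF2, was at 6.92, 8.74 and 7.38 CPM in Torin 1, 3 and 4, at 12.1, 15.8, 10.1 and 10.6 CPM in stimulated 1 to 4, and at 23.2, 35.4, 28.6 and 24.3 CPM in naive 1 to 4. The 3 groups did not overlap, with Torin lowest and naive highest. Nfe2l2 fell in stimulated against naive cells by 1.2 on the log2 scale (SE 0.19, adjusted p = 0.000522) and in Torin against naive cells by 1.86 (SE 0.22, adjusted p = 0.000135), lower in 4 of 4 and 3 of 3 same-numbered pairs. Both calls held without any 1 library, and without naive 2 the log2 changes were -1.06 and -1.73. In Torin against stimulated cells its log2 change was -0.66 (SE 0.21, adjusted p = 0.102), lower in 3 of 3 pairs. DESeq2 called that difference (-0.68, adjusted p = 0.021), as did edgeR on genes of at least 5 mean CPM (-0.69, adjusted p = 0.0454). No other setting called it. With the replicate number as a block it was -0.53 (adjusted p = 0.106), and without 1 library it was -0.78 to -0.51, called in 0 of 11 fits. Of the Nfe2l2 counts, 88.6% to 97.6% lay in transcript Nfe2l2-201 in every library.

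Among genes of glutathione synthesis, Gclm fell in stimulated cells while Gss rose. Gclm encodes the modifier subunit of glutamate-cysteine ligase, which makes the enzyme more efficient. It was at 18.9, 26.2 and 23.9 CPM in Torin 1, 3 and 4, at 13.5, 20, 17.4 and 13 CPM in stimulated 1 to 4, and at 32.6, 71.6, 26.7 and 29.2 CPM in naive 1 to 4. Every naive library was above every stimulated and every Torin library. Gclm fell by 1.32 on the log2 scale in stimulated against naive cells (SE 0.31, adjusted p = 0.00545), and by 0.89 without naive 2 (adjusted p = 0.00489). In Torin against naive cells the log2 change was -0.80 (SE 0.33, adjusted p = 0.0911), or -0.37 without naive 2. In Torin against stimulated cells Gclm alone among the 10 had a positive log2 change, 0.52 (SE 0.33, adjusted p = 0.414), higher in 3 of 3 pairs with groups that overlapped. Gclm shares 244 exon bases with Gm6061 on its own strand and 296 with Gm17494 on the opposite strand, and Gm17494 averaged 534 ± 56.4 CPM in Torin, 705 ± 118 CPM in stimulated and 274 ± 44.7 CPM in naive libraries (mean ± SD, n = 3, 4 and 4). Nothing in the labels says that strand was used in counting, so reads of the shared bases cannot be assigned with certainty.

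Gclc encodes the catalytic subunit of the same enzyme. It was at 4.30, 5.45 and 5.86 CPM in Torin 1, 3 and 4, at 10.3, 5.97, 3.67 and 5.58 CPM in stimulated 1 to 4, and at 12.4, 9.94, 7.22 and 11.5 CPM in naive 1 to 4. Torin libraries lay below every naive library, and stimulated 1 lay within the naive range. Gclc fell by 0.98 on the log2 scale in Torin against naive cells (SE 0.33, adjusted p = 0.0411). This call ended without Torin 1 (-0.86), Torin 3 (-1.01), Torin 4 (-0.97), stimulated 2 (-0.98), stimulated 4 (-0.98), naive 1 (-0.88), naive 2 (-1.0) or naive 4 (-0.92). In stimulated against naive cells its log2 change was -0.68 (SE 0.30, adjusted p = 0.0921), lower in 4 of 4 pairs, and the call began without stimulated 1 (-1.02, adjusted p = 0.00992). In Torin against stimulated cells it was -0.30 (SE 0.32, adjusted p = 0.688), and 0.04 without stimulated 1.

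Gss encodes glutathione synthetase, which adds glycine in the last step. Its levels were 17.0, 10.6 and 17.5 CPM in Torin 1, 3 and 4, 37.3, 17.7, 11.7 and 23.1 CPM in stimulated 1 to 4, and 9.34, 8.97, 5.81 and 5.99 CPM in naive 1 to 4. All stimulated and all Torin libraries were above all naive libraries, and the spread was widest among stimulated libraries. Gss rose by 1.58 on the log2 scale in stimulated against naive cells (SE 0.34, adjusted p = 0.00351), a call that held without any 1 library, between 1.22 and 1.89. In Torin against naive cells the log2 change was 1.0 (SE 0.36, adjusted p = 0.0538), higher in 3 of 3 pairs. That call began without Torin 3 (1.2), stimulated 1 (1.0) or stimulated 3 (1.05), and by DESeq2 (0.97, adjusted p = 0.0306). Torin cells differed from stimulated cells by a log2 change of -0.58 (SE 0.36, adjusted p = 0.42), lower in 3 of 3 pairs. On the opposite strand Gss shares 322 exon bases with Gssos1, 385 with Gssos2 and 395 with Acss2, and Acss2 was at 1.38 ± 0.634 CPM in Torin, 1.34 ± 0.394 CPM in stimulated and 11.1 ± 1.9 CPM in naive libraries (n = 3, 4 and 4), a direction opposite to that of Gss.

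Gsr, the gene of glutathione reductase, did not pass in any comparison. It was at 24.4, 26.3 and 26.4 CPM in Torin 1, 3 and 4, at 42.2, 43.2, 22.1 and 32.4 CPM in stimulated 1 to 4, and at 32.8, 60.6, 20.7 and 23.1 CPM in naive 1 to 4. The groups overlapped, and naive 2 was the highest library. The log2 change was 0.03 in stimulated against naive cells (SE 0.33, adjusted p = 0.956), and 0.45 without naive 2. It was -0.44 in Torin against stimulated cells (SE 0.36, adjusted p = 0.557) and -0.41 in Torin against naive cells (SE 0.36, adjusted p = 0.419). Transcript Gsr-201 held 100% of the Gsr counts, after rounding, in every library.

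Txn1, the gene of cytosolic thioredoxin, had the largest rise of the 10. It was at 3266, 2877 and 2676 CPM in Torin 1, 3 and 4, at 3757, 3658, 5203 and 3566 CPM in stimulated 1 to 4, and at 688, 1143, 678 and 751 CPM in naive 1 to 4. The 3 groups did not overlap. Txn1 rose 4.96-fold in stimulated against naive cells (log2 change 2.31, SE 0.21, adjusted p = 1.52e-05) and 3.61-fold in Torin against naive cells (1.85, SE 0.21, adjusted p = 0.000122). Both calls held without any 1 library, between 2.23 and 2.52 and between 1.77 and 2.06, and with library totals alone (1.82 and 1.52). Torin against stimulated cells gave a log2 change of -0.46 (SE 0.21, adjusted p = 0.261), lower in 3 of 3 pairs. The pseudogene Txn-ps1, which could share reads with Txn1, was listed at 2.77 ± 0.634 CPM in Torin, 4.51 ± 0.746 CPM in stimulated and 0.924 ± 0.312 CPM in naive libraries (n = 3, 4 and 4).

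Txnrd1 encodes the cytosolic selenoprotein that reduces thioredoxin with NADPH. It was at 16.1, 14.6 and 14.3 CPM in Torin 1, 3 and 4, at 32.2, 38.3, 22.7 and 26.7 CPM in stimulated 1 to 4, and at 17.1, 28, 13 and 11.6 CPM in naive 1 to 4. Every Torin library lay below every stimulated library, and naive 2 lay within the stimulated range. Txnrd1 rose in stimulated against naive cells by a log2 change of 0.78 (SE 0.27, adjusted p = 0.0395), higher in 4 of 4 pairs. That call ended without Torin 1 (0.78), Torin 3 (0.78), stimulated 1 (0.75), stimulated 2 (0.64), stimulated 4 (0.83), naive 1 (0.77), naive 3 (0.66) or naive 4 (0.63), and with library totals alone (0.32, adjusted p = 0.408). Without naive 2 it was 1.11 (adjusted p = 0.00244). The rise passed with the replicate number as a block (0.84, adjusted p = 0.00236) and with number 2 left out of every group (0.97, adjusted p = 0.00621). It did not pass with no filter (0.77, adjusted p = 0.0577) or with number 4 left out of every group (0.78, adjusted p = 0.0979).

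The log2 change of Txnrd1 in Torin against stimulated cells was -1.0 (SE 0.30, adjusted p = 0.0865), the largest of the 10 in size. With the replicate number as a block it was -0.78 and passed (adjusted p = 0.0422). It also passed by DESeq2 (-1.02, adjusted p = 0.012), with only the libraries of both groups (-0.98, adjusted p = 0.037) and without naive 2 (-1.0, adjusted p = 0.0339), which shares the estimate of the spread. That was 1 of the 11 fits without 1 library, which ranged from -1.15 to -0.86, and the others did not call it. Nor was it called with number 2 left out of every group (-0.86, adjusted p = 0.0751) or with library totals alone (-0.87, adjusted p = 0.155). Torin against naive cells gave -0.22 (SE 0.29, adjusted p = 0.622), and 0.11 without naive 2.

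**Figure D2:**
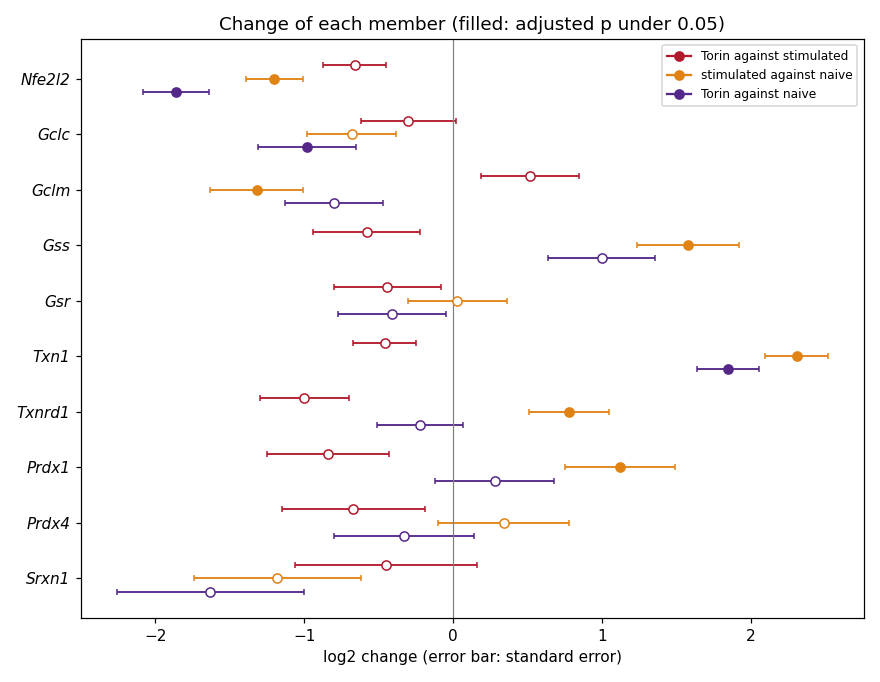
Log2 change of each gene (horizontal axis, points with standard errors) in Torin against stimulated, stimulated against naive and Torin against naive cells, from the edgeR fit over all 11 libraries; filled points have an adjusted p under 0.05. Txn1 lies at 2.31 and 1.85 in the comparisons with naive cells and Nfe2l2 at -1.2 and -1.86, while no point of Torin against stimulated cells is filled.

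Txnrd1 has several annotated starts, and its counts were divided among transcripts by start. Transcripts that begin in the second promoter window (chr10:82858956-82859255, GRCm38.p6), the window printed above with a core match, held 58.2%, 85.1% and 49.6% of its counts in Torin 1, 3 and 4. They held 72.8%, 90.6%, 59.3% and 68.7% in stimulated 1 to 4 and 49.9%, 70.9%, 52.2% and 85.4% in naive 1 to 4. The share varied widely within each group, with means of 64.3 ± 18.5% in Torin, 72.9 ± 13.1% in stimulated and 64.6 ± 16.8% in naive libraries (SD, n = 3, 4 and 4). The transcript that begins in the third window (chr10:82860091-82860390) held 32.4 ± 17.2%, 24.3 ± 12.9% and 31.9 ± 17.6% in these groups. The first window (chr10:82833701-82834000) held at most 2.6% in any library. These shares are estimates of how reads of shared exons divide, and they were not tested. In each of the other 9 genes, 1 transcript held at least 88.6% of the counts in every library.

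**Figure D3:**
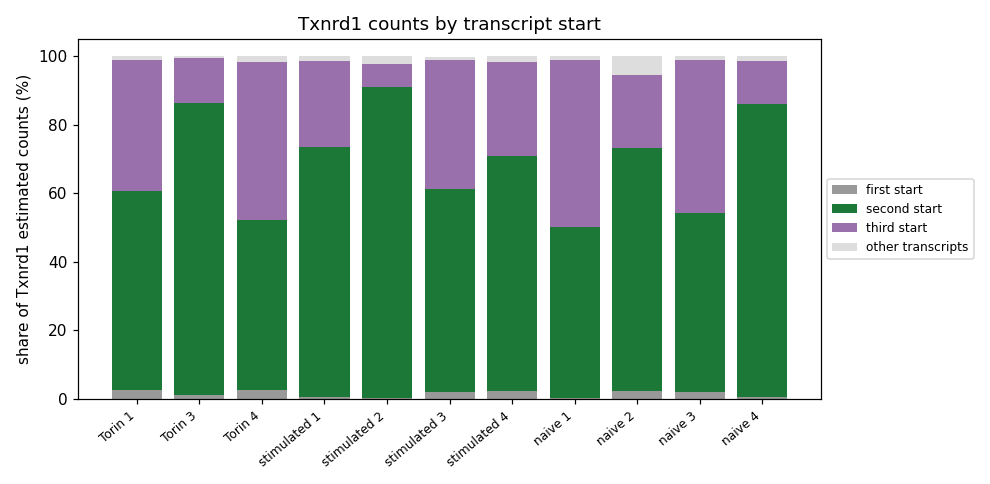
Share of Txnrd1 estimated counts (vertical axis, percent) by the promoter window in which transcripts begin, in each Torin, stimulated and naive library. The second start holds between 49.6% and 90.6%, and the bars of a group differ among themselves as much as between groups.

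Prdx1 encodes an abundant cytosolic peroxiredoxin, which thioredoxin keeps reduced. It was at 2517, 1900 and 2471 CPM in Torin 1, 3 and 4, at 3597, 5000, 4363 and 3487 CPM in stimulated 1 to 4, and at 1176, 3906, 1230 and 1230 CPM in naive 1 to 4. Stimulated libraries were above all Torin libraries, and 3 naive libraries were below all others, with naive 2 in the stimulated range. Prdx1 rose by a log2 change of 1.12 in stimulated against naive cells (SE 0.37, adjusted p = 0.0331), higher in 4 of 4 pairs, and by 1.76 without naive 2 (adjusted p = 6.76e-05). The call ended without stimulated 2 (1.02), naive 1 (0.95), naive 3 (0.96) or naive 4 (0.96), all fits that kept naive 2, and with library totals alone (0.66, adjusted p = 0.147). It also ended with number 4 left out of every group (1.14, adjusted p = 0.0984). The rise passed with the replicate number as a block (1.34, adjusted p = 0.00263) and with number 2 left out of every group (1.65, adjusted p = 0.000237). In Torin against naive cells the log2 change was 0.28 (SE 0.40, adjusted p = 0.635), and without naive 2 it was 0.92 and passed (adjusted p = 0.00364). Torin against stimulated cells gave -0.84 (SE 0.41, adjusted p = 0.278), and it passed without naive 2 (-0.84, adjusted p = 0.0277) and with only the libraries of both groups (-0.82, adjusted p = 0.0412). No other setting called it, DESeq2 included (-0.86, adjusted p = 0.173). Naive 2 held 1773 CPM of Lyz2, a lysozyme gene of myeloid cells, against 96.7 to 176 CPM in the other naive libraries, and the part of such cells in the Prdx1 level was not tested.

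Prdx4 encodes the peroxiredoxin of the endoplasmic reticulum. It was at 17.9, 14.4 and 24.3 CPM in Torin 1, 3 and 4, at 32.9, 28.8, 20.6 and 38 CPM in stimulated 1 to 4, and at 11.5, 20.9, 12.1 and 50.7 CPM in naive 1 to 4. Number 4 was the highest library in each group, and naive 4 was above all stimulated libraries. Igkc, an immunoglobulin light chain gene, had 13134 CPM in Torin 4, 14279 CPM in stimulated 4 and 46939 CPM in naive 4, and the part of antibody-secreting cells in the Prdx4 level was not tested. The log2 change in stimulated against naive cells was 0.34 (SE 0.44, adjusted p = 0.581), and without naive 4 it was 1.02 and passed (adjusted p = 0.02). It was -0.67 in Torin against stimulated cells (SE 0.48, adjusted p = 0.49). Torin against naive cells gave -0.33 (SE 0.47, adjusted p = 0.643), and 0.35 without naive 4.

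Srxn1 encodes sulfiredoxin, which restores over-oxidised peroxiredoxins. Its levels were low, at 1.64, 3.45 and 1.84 CPM in Torin 1, 3 and 4, at 1.68, 4.17, 3.88 and 2.91 CPM in stimulated 1 to 4, and at 2.98, 15.6, 2.44 and 7.70 CPM in naive 1 to 4. The groups overlapped, and naive 2 and naive 4 were above all other libraries. The log2 change was -1.18 in stimulated against naive cells (SE 0.56, adjusted p = 0.121), or -0.47 without naive 2. It was -1.63 in Torin against naive cells (SE 0.63, adjusted p = 0.0708), or -0.92 without naive 2. Torin against naive cells passed without naive 1 (-1.89, adjusted p = 0.0413) or naive 3 (-1.92, adjusted p = 0.0323). Torin against stimulated cells gave -0.45 (SE 0.61, adjusted p = 0.76).

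Levels of different genes were compared as CPM per kilobase of all annotated exon, and again per kilobase of the longest transcript, since the order depends on the length used. In Torin libraries Txn1 came first at 2797 CPM per kilobase of exon, and Prdx1 followed at 755, or 1001 per kilobase of the longest transcript, with no overlap between them on either scale. In stimulated libraries Txn1 was at 3850 and Prdx1 at 1351 CPM per kilobase of exon, or 1792 on the longest transcript, again apart. In naive libraries Txn1 at 775 and Prdx1 at 620 CPM per kilobase of exon overlapped, and on the longest transcript Prdx1, at 822, had the higher mean, also with overlap.

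The other 8 genes were far lower. Prdx4 and Gsr in stimulated libraries overlapped at 14.3 and 12.7 CPM per kilobase of exon, but on the longest transcript Prdx4, at 29.3 (20.1 to 37.1), lay above Gsr, at 13.1 (8.27 to 16.2). Per kilobase of exon both lay above the remaining 6 genes, and on the longest transcript Gsr overlapped Txnrd1 (6.27 to 10.6) and Gss (3.59 to 11.4). Gclm and Gclc had means of 3.66 and 1.38 CPM per kilobase of exon in Torin, 2.54 and 1.69 in stimulated and 6.36 and 2.73 in naive libraries. The pair did not overlap in Torin and naive libraries, but in stimulated libraries Gclm (2.07 to 3.18) and Gclc (0.975 to 2.73) did. Gss had the lowest mean of the 10 in naive libraries, at 1.27 CPM per kilobase of exon, and Srxn1 in Torin and stimulated libraries, at 0.819 and 1.12.

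**Figure D4:**
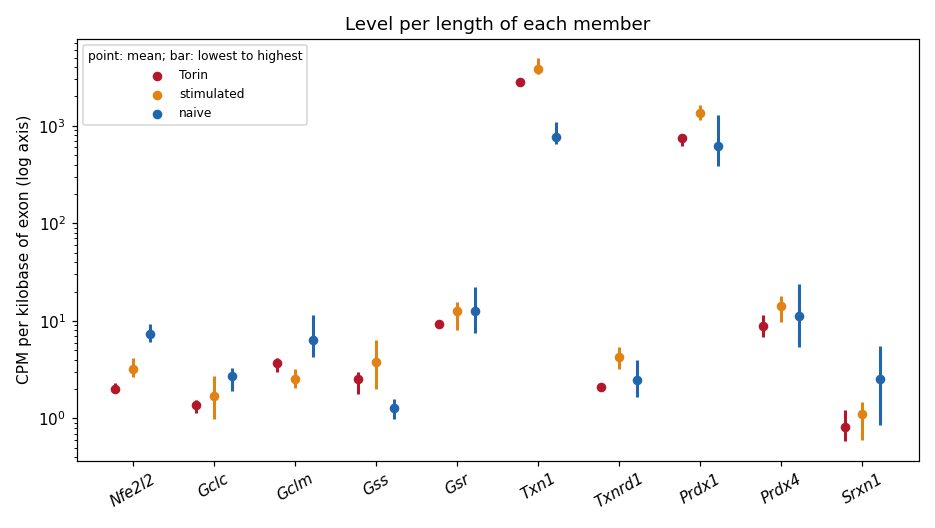
CPM per kilobase of exon (log axis) for each gene in Torin, stimulated and naive libraries; points are means and bars run from the lowest to the highest library. Txn1 and Prdx1 lie at 620 CPM per kilobase or more on average in every group, and the other 8 genes at 14.3 or less.

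The wider pathway was read from 6 lists with 92 further genes, all of them measured. In stimulated against naive cells 21 rose, 26 fell and 45 did neither, beside 19.2% of all genes higher and 20.2% lower. Of 15 other thioredoxin and peroxiredoxin genes, 6 rose and 4 fell (median log2 change 0.33, and -0.22 over all genes). Txn2, the mitochondrial thioredoxin, rose to 530 ± 70.8 CPM in stimulated, against 156 ± 58.4 CPM in naive libraries (log2 change 1.76, adjusted p = 0.000165, n = 4 each). Txnrd3, a thioredoxin and glutathione reductase, rose to 5.69 ± 1.53 CPM, against 0.706 ± 0.311 CPM (3.01, adjusted p = 0.000122). Txnip, whose product binds and restrains thioredoxin, fell to 7.47 ± 4.27 CPM, against 87.4 ± 21.1 CPM (-3.55, adjusted p = 3.89e-05). Msrb2, a methionine sulfoxide reductase, fell to 3 ± 1.16 CPM, against 18.3 ± 2.23 CPM (-2.60, adjusted p = 0.000142).

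Of 25 genes that use glutathione, 5 rose and 7 fell in stimulated against naive cells (median -1.06). Glrx3, a glutaredoxin of iron-sulfur protein assembly, rose to 124 ± 13.7 CPM, against 36.1 ± 8.98 CPM in naive libraries (log2 change 1.78, adjusted p = 3.23e-05). Mgst2, a microsomal glutathione transferase, fell to 12.3 ± 6.07 CPM, against 205 ± 58.7 CPM (-4.06, adjusted p = 2.65e-05), and the cytosolic glutaredoxin gene Glrx to 9.21 ± 5.72 CPM, against 48.3 ± 18.8 CPM (-2.39, adjusted p = 0.00321). The list of glutathione supply also held genes of glutathione breakdown, such as Chac1, so its counts give no direction of supply. Of its 11 other genes, 4 rose (Slc3a2, Cth, Chac1 and Chac2) and 2 fell (Ggt1 and Ggt5), with a median of 0.08. Without naive 2 these counts were 2 and 1. Cth rose to 24 ± 12.7 CPM in stimulated, against 0.794 ± 1.24 CPM in naive libraries (4.91, adjusted p = 0.0225). The count of genes that fell was also 1 without Torin 4, stimulated 1, stimulated 3 or stimulated 4. Chac1, which degrades glutathione and is induced by the stress factor ATF4, rose to 33.3 ± 13.9 CPM in stimulated, against 2.81 ± 2.27 CPM in naive libraries (3.57, adjusted p = 0.00457).

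Of 22 other genes that control NRF2 or are known as its targets, 2 rose and 7 fell in stimulated against naive cells (median -1.04). The 2 that rose were 4 without naive 1, and 1 without stimulated 1, naive 3 or naive 4. With library totals alone 1 rose and 11 fell, beside 9129 of 22238 genes called, 28.5% of them as higher. The heavy ferritin chain gene Fth1 fell to 605 ± 324 CPM, against 3102 ± 2719 CPM in naive libraries (log2 change -2.36, adjusted p = 0.00446), with 7175 CPM in naive 2. Rbx1, the RING subunit of the ubiquitin ligase that acts on NRF2 and on many other proteins, rose to 2339 ± 609 CPM, against 877 ± 181 CPM (1.41, adjusted p = 0.000274). Of 14 genes of NADPH supply, 3 rose and 4 fell (median -0.02), and 2 fell without stimulated 1. Mthfd1, a one-carbon enzyme, rose to 36.5 ± 6.65 CPM, against 3.14 ± 1.54 CPM (3.54, adjusted p = 4.6e-05), and the transketolase gene Tkt to 131 ± 21.3 CPM, against 55.8 ± 11.9 CPM (1.23, adjusted p = 0.000244). Among 5 superoxide dismutase and catalase genes, Cat fell to 4.64 ± 2.05 CPM, against 20.2 ± 4.22 CPM (-2.12, adjusted p = 0.000694), and Ccs, the copper chaperone of superoxide dismutase, to 69.2 ± 11 CPM, against 170 ± 18 CPM (-1.30, adjusted p = 4.61e-05).

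**Figure D5:**
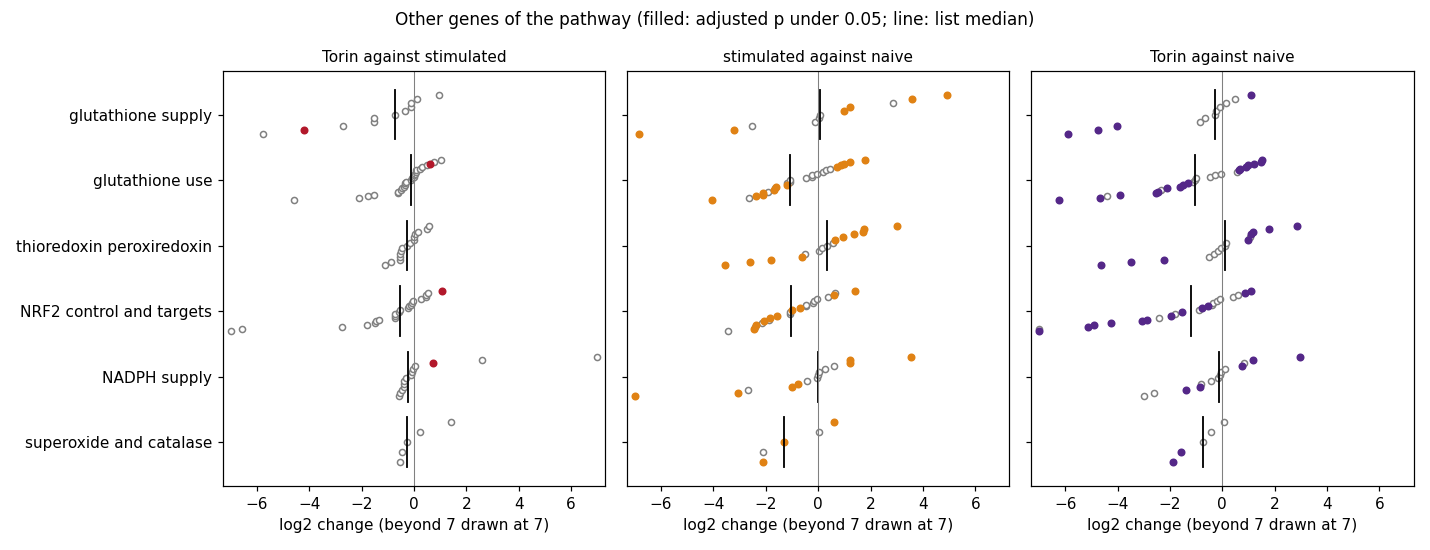
Log2 change (horizontal axis, values beyond 7 drawn at 7) of the 92 other pathway genes by list in Torin against stimulated, stimulated against naive and Torin against naive cells; filled points have an adjusted p under 0.05 and lines are list medians. In Torin against stimulated cells 4 points are filled, against 47 in each comparison with naive cells.

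Of the 92 genes, 3 rose and 1 fell in Torin against stimulated cells, beside 4.62% of all genes in either direction. Chac1 fell to 1.79 ± 0.553 CPM in Torin (n = 3), against 33.3 ± 13.9 CPM in stimulated libraries (n = 4; log2 change -4.22, adjusted p = 0.0325). Its call ended without Torin 1 (-4.35), Torin 3 (-3.98), Torin 4 (-4.33), stimulated 1 (-4.16) or stimulated 2 (-4.16), and with the replicate number as a block (-4.50), while the groups did not overlap. Bach2, a repressor that shares binding sites with NRF2, rose to 42.6 ± 5.42 CPM, against 20.5 ± 5.69 CPM (1.06, adjusted p = 0.0338), a call that ended without Torin 1 (1.02), Torin 3 (0.99), stimulated 2 (0.99) or stimulated 4 (0.91). The other 2 were Pgls, a pentose phosphate pathway enzyme, at 375 ± 59.9 and 228 ± 36.2 CPM, and the glutathione transferase gene Gstt2, at 114 ± 4.48 and 75.2 ± 8.5 CPM. Pgls was not called without Torin 1 (0.76), Torin 3 (0.58), stimulated 1 (0.73), stimulated 2 (0.67) or stimulated 4 (0.66). Gstt2 was not called without any 1 of 8 libraries (0.54 to 0.64), the exceptions being stimulated 1, naive 1 and naive 4, nor with the replicate number as a block (0.60, adjusted p = 0.0521).

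Of the same 92 genes, 18 rose and 29 fell in Torin against naive cells, beside 32.2% of all genes in either direction. Txn2 rose to 545 ± 54.6 CPM in Torin (n = 3), against 156 ± 58.4 CPM in naive libraries (n = 4; log2 change 1.80, adjusted p = 0.000345), and Txnip fell to 3.47 ± 0.826 CPM, against 87.4 ± 21.1 CPM (-4.65, adjusted p = 6.1e-05). Slc3a2, the heavy chain of the cystine exchanger and of other amino acid transporters, rose to 264 ± 17.7 CPM, against 124 ± 26 CPM (1.09, adjusted p = 0.000905). Slc7a11, the light chain of that exchanger, fell to 1.54 ± 0.0329 CPM, against 25.3 ± 36.1 CPM (-4.04, adjusted p = 0.0222), with 79.5 CPM in naive 2 and 6.8 to 7.6 CPM in the other naive libraries. Without naive 2 its log2 change was -2.25 (adjusted p = 0.0478), and the call ended without Torin 1 (-4.04), Torin 3 (-4.05) or Torin 4 (-3.91). The haem oxygenase gene Hmox1 fell to 1.94 ± 1.19 CPM, against 68.6 ± 103 CPM (-5.14, adjusted p = 0.00833), with 223 CPM in naive 2 and 13.1 to 22.1 CPM in the other naive libraries. Osgin1, an oxidative stress response gene, was listed at 0 in all 3 Torin libraries and at 0.445, 5.43, 0.168 and 0.697 CPM in naive 1 to 4. In stimulated against naive cells Slc3a2 also rose (0.97, adjusted p = 0.000866), and Slc7a11 changed by -2.51 (adjusted p = 0.061). With the replicate block that change of Slc7a11 was -2.21 (adjusted p = 6.53e-05). Torin against stimulated cells gave 0.13 for Slc3a2 and -1.52 for Slc7a11, or -0.11 for Slc7a11 with the block, none of them called.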

How the data were processed

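Per the submitters' processing notes, reads were handled with StringTie 2.1.0, STAR 2.7.1a, DESeq2 1.30.1, SAMtools 1.9 and R 4.0.5, whose roles are not given, on build mm39. The authors deposited estimated counts, in whole numbers, for 55414 genes and 142435 transcripts. Per the labels' protocols, cDNA came from a SMARTer low-input kit. The members and gene lists were chosen with earlier results of these data known. Symbols, exon lengths and transcript starts came from GENCODE M21 (GRCm38), matched by identifier, and no mm39 coordinates are given.

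The test was that of edgeR 4.0.16 under R 4.3.3 (quasi-likelihood F test, TMM, filterByExpr at a minimum count of 10, 11 libraries, 1 mean per group), with Benjamini-Hochberg adjustment over 22238 genes at 0.05. The SE is the log2 change over the square root of F. Genes named beyond the members came from the top 2 called in each direction, by log2 change, in every list and comparison; the text describes some of them, and Slc7a11 besides, picked after their values were seen. Deviations from group means correlated between same-numbered libraries at 0.11 to 0.31 for Torin and stimulated, 0.15 to 0.29 for stimulated and naive, and 0.08 to 0.28 for Torin and naive libraries. No pair of libraries was a duplicate (lowest chi-square per gene 290.6). The fit was tested on simulated data. The estimated totals are larger than reads per library usually are, so no counting intervals were computed, and precision rests on the spread between libraries. Alternatives were DESeq2 1.42.0, other scalings, filters, blocks and left-out libraries.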

Additional observations from a re-analysis of the deposited data

Results flagged for a closer look

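Of 102 groups of 4 libraries examined (10 members, 32 other named genes and 9 marker sums in stimulated and naive cells), 20 had 1 library far from the other 3 by Dixon's criterion. Chance meets it in about 1 in 20 independent groups of normal values. These groups share libraries and include genes picked by their change, so that rate cannot be used to judge the 20. Among the members, naive 2 stood high for Gclm (71.6 CPM, against 26.7 to 32.6 in the other naive libraries), Txn1 (1143, against 678 to 751) and Prdx1 (3906, against 1176 to 1230), and stimulated 3 for Txn1 (5203, against 3566 to 3757).

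Naive 2 also stood high for Blvrb (145 CPM), Fth1 (7175), Ggt1 (9.31), Gsto1 (41.3), Hmox1 (223), Idh1 (6.93), Mgst1 (41.9) and Osgin1 (5.43). Mgst1 was high in stimulated 2 (13.7 CPM, against 0.503 to 0.995). Stimulated 3 was high for Sod1 (305 CPM, against 220 to 229) and low for Txnrd3 (3.43 CPM, against 6.19 to 6.75).

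Marker sums of B and plasma cells stood apart in stimulated 4 (14546 CPM) and naive 4 (48046), those of granulocytes in stimulated 2 (2068) and naive 2 (8557), and those of monocytes and macrophages in naive 2 (2385). The part of such cells in the levels of these genes was not tested.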

How the results depend on the processing

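The alternatives were DESeq2, its size factors within edgeR, scaling by library totals alone, a filter at a mean of 5 CPM or no filter, a replicate block, the description letter as a covariate, only the 2 groups compared, number 4 or number 2 left out of every group, and each library left out in turn. The genes called in Torin against stimulated cells were 1027, against 2959 by DESeq2, 656 with no filter, 675 with the letter, 55 without number 4, 338 without number 2 and 144 to 1058 without 1 library, the lowest when Torin 3 was left out. Leaving out Torin 1 gave 261 genes, Torin 4 gave 541, stimulated 2 gave 463 and stimulated 4 gave 441. No member was called higher there under any setting. The members lower were 0, against 2 by DESeq2, at 5 CPM and with only the 2 groups, 1 with the replicate block or the letter, and 0 to 2 without 1 library. Of all genes, DESeq2 called 2959 of 35145, the filter at 5 CPM 1378 of 8550, and only the 2 groups 975 of 19754. The replicate block called 965 of 22238.

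In stimulated against naive cells, 2 members were higher and 4 lower with library totals alone, and 2 to 4 were higher and 2 to 3 lower without 1 library. Library totals alone called 9129 of 22238 genes there, 28.5% of them as higher. In Torin against naive cells, 2 members were higher by DESeq2, with the replicate block, with the letter, with only the 2 groups and without number 2, and 1 to 2 without 1 library. The members lower there were 4 by DESeq2 and with library totals alone, and 1 to 3 without 1 library. They were 1 with no filter, with the replicate block, with the letter, without number 4 and without number 2. Of all genes, DESeq2 called 9244 of 35145 there, 47.1% of them as higher. Library totals alone called 6837 of 22238, 33.4% of them as higher. The replicate block called 7394 of 22238, and the fit with no filter 6154 of 36745.

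Signs turned only for changes that were not called. For Gsr in stimulated against naive cells the log2 change was -0.41 with library totals alone, -0.11 at 5 CPM and -0.15 to 0.45 without 1 library. In Torin against naive cells Gsr was 0.01 without number 2 and -0.60 to 0.01 without 1 library, and Txnrd1 was 0.06 with the replicate block or the letter, 0.11 without number 2 and -0.37 to 0.11 without 1 library. Prdx1 there was -0.02 with library totals alone, and Prdx4 was 0.24 without number 4 and -0.57 to 0.35 without 1 library. Prdx4 in stimulated against naive cells was -0.08 with library totals alone, and Gclc in Torin against stimulated cells was -0.53 to 0.04 without 1 library.

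The numbers pair Torin with stimulated and stimulated with naive libraries by the correlations given above, and in these comparisons the replicate block changed no member's call other than that of Txnrd1. Torin and naive libraries of numbers 1, 3 and 4 correlated at 0.08, 0.13 and 0.28, against at most 0.07, 0.05 and -0.02 with another number. With the block there Gclc was not called (-0.92) and Gss was (1.0), the reverse of the main fit. With library totals alone the median over all genes was 0.11, -0.71 and -0.52 in Torin against stimulated, stimulated against naive and Torin against naive cells, and 67.6%, 28.5% and 33.4% of the called genes were higher, against 50.1%, 48.7% and 50.9% with TMM. The causes were not tested. Srxn1 had the widest standard error of the 10 members in each comparison.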
